A study of Homo sapiens with 8 samples.

Results

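The integrated stress response is a program of genes that cells turn on when they lack amino acids, carry unfolded protein in the endoplasmic reticulum or meet oxidants or virus. Stress kinases phosphorylate the translation factor eIF2, most protein synthesis slows, and the transcription factor ATF4 is made from its RNA more efficiently, so that much of its control lies in translation rather than in RNA level. ATF4 pairs with C/EBP proteins at the promoters of genes for amino-acid synthesis, amino-acid uptake and tRNA charging, and keratinocytes use the same program. The members are 37 genes listed by symbol as ATF4 and its known targets, and they were looked up in the deposited count table. All 37 were among its 28518 gene rows, and 36 passed a filter on low counts that kept 14834 genes. VLDLR, a lipoprotein receptor, had 0 to 4 counts per library and failed the filter.

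The cells were HaCaT keratinocytes, a human skin line that grows indefinitely in culture, with the gene CARD14 deleted. CARD14 encodes an adaptor protein of the skin that activates NF-kB. All 8 libraries carry the CARD14 KO genotype, and each dish received 9 ug of a plasmid that encodes CARD14, the T2A peptide and eGFP. The CARD14 in it was WT, R820W, N737H or I593T, where the 3 variants are called hypomorphic by the submitters. Cells with GFP were collected by sorting 24 h later, so the CARD14 present was plasmid-driven and the cells were those that took up the plasmid. A and B are the titles of the 2 libraries in every one of the 4 groups, and the series speaks of 2 independent experiments without tying the letters to them in words. No library of untransfected or empty-plasmid cells was analysed here.

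The libraries held 17892608 to 24629860 counts, and the members took 0.768 to 0.956% of them. Keratinocyte markers (8 genes, none of them at 0 in every library) summed to 5110 to 7260 CPM in the A libraries and 4300 to 6810 in the B libraries, where CPM is the count scaled to the normalised library size. The sums over 5 fibroblast, 4 leukocyte, 4 melanocyte and 3 endothelial markers were at most 1.63, 0.564, 3.1 and 2.8 CPM. Of the melanocyte markers, TYR was at 0 in every library. CARD14 RNA was 1127, 1190, 444 and 500 CPM in the A libraries of WT, R820W, N737H and I593T and 978, 1410, 1005 and 1394 CPM in the B libraries. In libraries made from many cells, fewer cells with a gene on and less of its RNA per cell cannot be told apart.

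ATF4 and its C/EBP partners recognise a composite element, the C/EBP-ATF response element, whose core can be written TGATGNAA. Promoter windows of 300 bases (from 250 before to 50 after the annotated start) were taken from RefSeq on GRCh38.p14 and searched for these letters on both strands. Windows were found for 31 of the 37 members. PSPH, SHMT2, ALDH1L2, SLC7A11, NUPR1 and SARS had no entry. The letters occurred in a window of 11 of the 31 members (35.5%) and of 1217 of all 27305 genes with a window (4.46%). Counted by window, of which a gene can have several that overlap, they were in 11 of 49 (22.4%) against 1270 of 35116 (3.62%). The 11 members were AARS, GARS, MARS, NARS, TARS, CHAC1, CEBPG, ASNS, SLC3A2, SLC7A1 and SLC1A5. Because the members were listed as known ATF4 targets, a share above that of all genes is no independent result. A match describes the letters and does not show that a factor binds there.

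The 6 whose match lies wholly before the annotated start are shown, because they let a reader see the element in promoters of regulators, a synthesis enzyme, a transporter and tRNA synthetases. Of these genes, CHAC1 and GARS passed the test between the A and B libraries described later, and CEBPG, ASNS, SLC1A5 and AARS did not. That test called 6 of 36 members and 3.24% of all genes. The other members called were PSAT1, MTHFD2 and CBS, whose windows held no match, and SLC7A11, which had no window. Whether the element bears on the difference between letters was not tested. In MARS the match spanned the start, and in SLC3A2, SLC7A1, NARS and TARS it lay wholly after the start. Each is 36 bases read 5′ to 3′ on the strand of its gene, and the capitals mark the match, which reads TTGCATCA or TTTCATCA where the element runs in the opposite direction.
CHAC1, chr15:40953248-40953283, + strand: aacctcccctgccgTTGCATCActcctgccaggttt
GARS, chr7:30594831-30594866, + strand: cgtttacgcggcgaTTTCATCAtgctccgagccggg
CEBPG, chr19:33374057-33374092, + strand: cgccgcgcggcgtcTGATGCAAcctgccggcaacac
ASNS, chr7:97872455-97872490, - strand: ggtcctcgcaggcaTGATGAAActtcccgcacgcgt
SLC1A5, chr19:46784890-46784925, - strand: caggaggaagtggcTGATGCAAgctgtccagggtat
AARS, chr16:70289672-70289707, - strand: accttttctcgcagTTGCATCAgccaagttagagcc
These coordinates are those of the RefSeq build and not of hg19, which the submitters' processing notes name.

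The first question was whether the ATF4 genes differ between cells with WT CARD14 and cells with each variant. No member passed the test in any of the comparisons with WT, and neither did any other gene: 0 of 14834 genes (0%) had an adjusted p under 0.05 for R820W, for N737H, for I593T or for the mean of the 3 variants (edgeR quasi-likelihood test, two-sided, adjusted p = 1.00 for every member). At an unadjusted p under 0.05, the call rates over all genes were 1.04% (154 genes) for R820W, 2.44% (362) for N737H and 1.43% (212) for I593T. By that rule 0 of 36 members were lower or higher with R820W, 2 were lower with N737H (DDIT4 and WARS) and 1 was lower with I593T (WARS). DESeq2 on the same genes called 0 genes for R820W, 1 for N737H and 2 for I593T. The labels do not say whether the 2 libraries of a group came from separate cultures beyond the mention of 2 experiments, so the p-values reflect only how far these libraries spread. The 3 comparisons share the WT libraries.

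The members lay slightly to the lower side. With R820W 24 of 36 had a fitted log2 fold change below 0, with a median of -0.11 (all genes tested, -0.01). With N737H 30 of 36 did, with a median of -0.13 (all genes, -0.03), and with I593T 24 of 36, with a median of -0.05 (all genes, -0.02). Over all genes tested, 52.0%, 54.2% and 54.4% lay below 0 in these comparisons. The medians depended on single libraries, WT A among them. Without the WT A library they were 0.10, 0.03 and 0.09, and the members below 0 numbered 15, 15 and 12. Without the R820W B library, 12 members were below 0 with R820W. WT A had the highest level of the 8 libraries for 16 of 36 members (44.4%, against 19.9% of all genes tested), and N737H B had the lowest level for 15 (41.7%, against 16.2%). Without N737H B the N737H median was -0.03. That library had a count in 21059 genes, against 17836 to 18855 in the others, and whether this bears on its member levels was not tested.

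**Figure D1:**
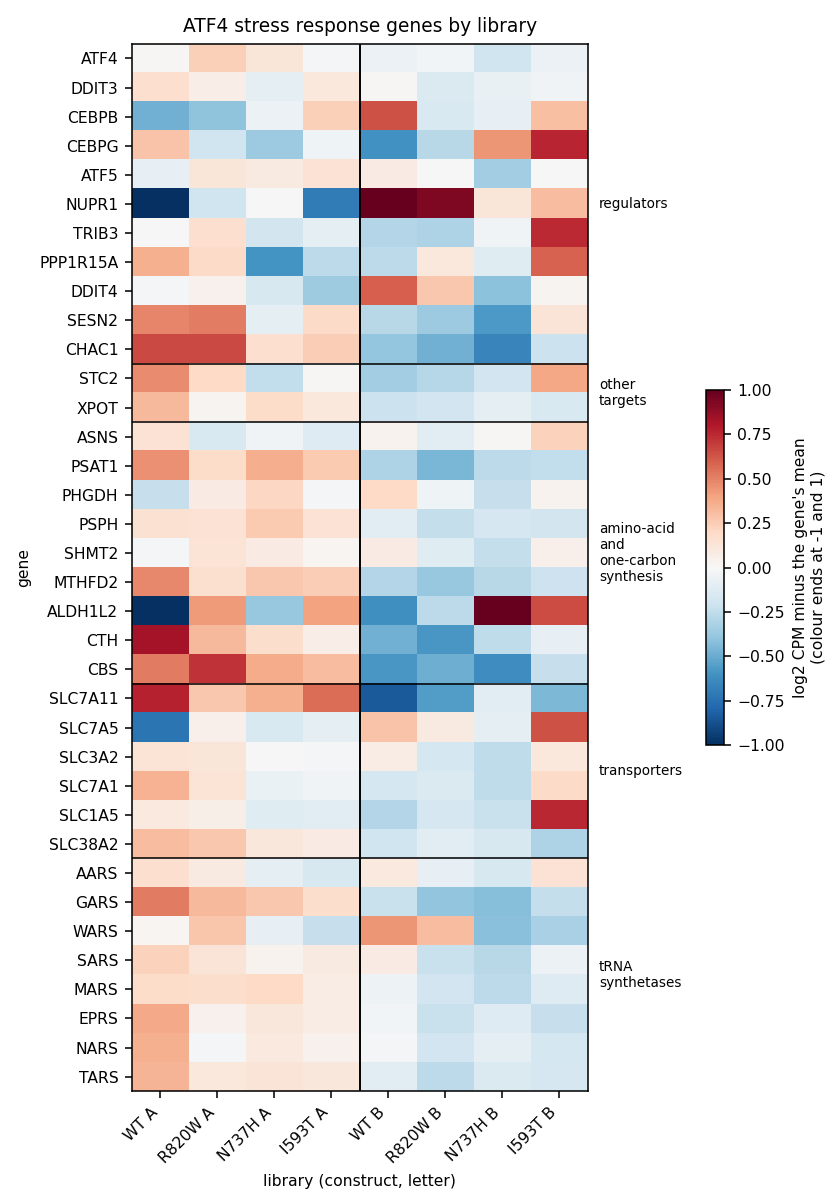
Level of the 36 members that passed the filter in the 8 libraries, as log2 CPM minus the gene's mean over the libraries (colour, ending at -1 and 1), with A libraries on the left of the vertical line and B libraries on the right. WT A was highest for 16 members and N737H B lowest for 15; in 17 members each construct was lower in B than in A.

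Both libraries of a variant lay below both WT libraries for 3 of 36 members with R820W (8.33%, against 12.8% of all genes tested), namely ASNS, AARS and NARS. With N737H this held for 7 members (19.4%, against 12.4%), namely DDIT3, DDIT4, ASNS, SLC3A2, AARS, WARS and SARS. With I593T it held for WARS alone (2.78%, against 11.0%). ALDH1L2 was the 1 member above both WT libraries with each variant (2.78%, against 12.6%, 9.92% and 9.61% of all genes). The R820W and I593T shares in the lower direction were thus not above those of all genes, and the shares in the higher direction were below them with every variant.

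Among the regulators, ATF4 itself was nearly level. It stood at 86.2 and 82.3 CPM in WT A and B, 100.7 and 84.0 with R820W, 93.1 and 74.4 with N737H, and 84.7 and 82.1 with I593T. The range of every variant overlapped that of WT. Its log2 fold changes from WT were 0.13 for R820W, -0.01 for N737H and -0.01 for I593T, each ± 0.17 (SE, n = 2 libraries per group). The 95% intervals ran from -0.26 to 0.53, -0.40 to 0.38 and -0.41 to 0.38. Smaller changes of ATF4 RNA were thus not detectable in this fit, which had 2 libraries per group and no term for the letter. The direction for N737H and I593T turned with a stricter filter and with a fit of those groups alone, and for N737H also with RLE scaling. ATF4 has 4 named pseudogenes, and reads shared with them could have been counted for either.

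DDIT3 (CHOP), the transcription factor that ATF4 induces under lasting stress, was at 60.3 and 54.0 CPM in WT A and B. It was at 56.1 and 48.4 with R820W, 50.1 and 51.1 with N737H, and 57.8 and 52.5 with I593T. Both N737H libraries lay below both WT libraries, while the R820W and I593T libraries overlapped them. The log2 fold changes were -0.13, -0.18 and -0.05, each ± 0.16. With 1 library left out they ran from -0.26 to -0.03 for R820W, from -0.24 to -0.09 for N737H and from -0.12 to 0.03 for I593T, the ends being set by the R820W A and B, WT B and A, and I593T A and WT A libraries.

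DDIT4 (REDD1), an inhibitor of the growth kinase complex mTORC1, was the member of smallest p with N737H. It was at 192 and 293 CPM in WT A and B and at 173 and 146 with N737H. R820W had 199 and 233 and I593T had 152 and 198. Both N737H libraries were lower than both WT libraries, but WT A and WT B were farther apart than WT A and N737H A. The log2 fold change with N737H was -0.60 ± 0.24 (edgeR unadjusted p = 0.0348, adjusted p = 1.00), made of -0.15 in the A libraries and -1.01 in the B libraries. With I593T it was -0.47 ± 0.24, and without the WT B library the values were -0.25 and -0.13.

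PPP1R15A (GADD34), the phosphatase subunit that reverses eIF2 phosphorylation, was at 232 and 152 CPM in WT A and B. It was at 207 and 195 with R820W, 120 and 167 with N737H and 151 and 273 with I593T. In the A libraries all 3 variants were below WT and in the B libraries all 3 were above it. TRIB3, a pseudokinase that restrains ATF4, was at 42.7 and 35.0 CPM in WT, 48.3 and 34.6 with R820W, 37.8 and 41.8 with N737H, and 40.1 and 72.1 with I593T. Only its I593T B library stood apart, and the log2 fold change of 0.53 ± 0.29 for I593T was 0.05 without it.

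The remaining regulators were CEBPB and CEBPG (partners of ATF4), ATF5 (a related factor under the same translational control), NUPR1 (a stress-induced chromatin protein), SESN2 (a leucine sensor that restrains mTORC1) and CHAC1 (an enzyme that degrades glutathione). Their fitted log2 fold changes from WT ran from -0.49 for NUPR1 with I593T to 0.51 for CEBPG with I593T. NUPR1 rested on 3 to 28 counts per library. Over the 11 regulators, 6 were below 0 with R820W (median -0.01), 9 with N737H (median -0.27) and 5 with I593T (median 0.00294).

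**Figure D2:**
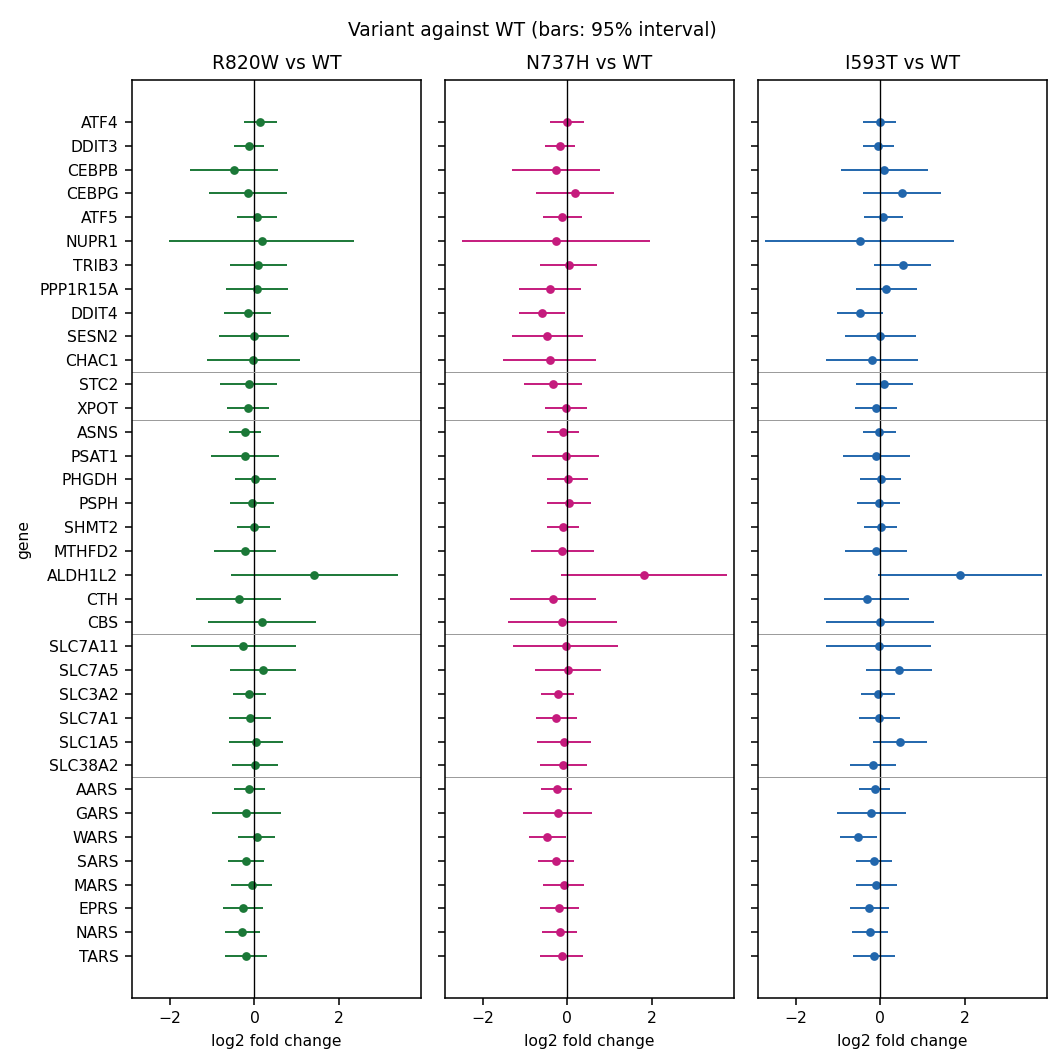
Fitted log2 fold change of each of the 36 members for each variant against WT, with bars for the 95% interval; grey lines separate regulators, other targets, synthesis enzymes, transporters and tRNA synthetases. Nearly every bar crosses 0, and the exceptions, DDIT4 and WARS with N737H and WARS with I593T, did not pass after adjustment.

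The enzymes of amino-acid and one-carbon synthesis include the serine pathway (PHGDH, PSAT1, PSPH), mitochondrial folate enzymes (SHMT2, MTHFD2, ALDH1L2), asparagine synthetase (ASNS) and the transsulfuration enzymes CBS and CTH. Of these 9, 6 had a log2 fold change below 0 with each variant, with medians of -0.06, -0.10 and -0.03 for R820W, N737H and I593T. ASNS was at 62.7 and 57.9 CPM in WT A and B, 50.9 and 52.5 with R820W, 55.4 and 57.0 with N737H, and 51.9 and 66.6 with I593T. The R820W and N737H libraries were below both WT libraries, by a log2 fold change of -0.22 ± 0.17 and -0.10 ± 0.17. ASNS has 5 named pseudogenes.

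ALDH1L2, a mitochondrial enzyme that oxidises formyl-tetrahydrofolate, had the highest fold change of the members in all 3 comparisons, on very few counts. It had 2 and 4 counts in WT A and B, 12 and 5 with R820W, 5 and 16 with N737H, and 12 and 12 with I593T. Every variant library was above both WT libraries. The log2 fold changes were 1.42 ± 0.86, 1.82 ± 0.85 and 1.88 ± 0.84 (edgeR unadjusted p = 0.138, 0.0647 and 0.0564), and the fitted values of so low a gene depend on the prior count. Leaving out N737H B gave 0.79 and leaving out R820W A gave 0.89.

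PSAT1, the aminotransferase of the serine pathway, had no separation by construct. Against 616 and 362 CPM in WT A and B it was at 510 and 327 with R820W, 576 and 373 with N737H and 537 and 378 with I593T. Its groups overlapped widely because every A library was above every B library. SHMT2, which makes glycine and one-carbon units from serine in mitochondria, was at 265 and 285 CPM in WT, 296 and 247 with R820W, 284 and 228 with N737H and 273 and 279 with I593T. Its fitted log2 fold changes were -0.02, -0.10 and 0.00441, each ± 0.17.

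The transporters were SLC7A11 (cystine uptake), SLC7A5 with its partner SLC3A2 (large neutral amino acids), SLC7A1 (cationic amino acids), SLC1A5 (glutamine) and SLC38A2 (small neutral amino acids). Of the 6, 3 were below 0 with R820W, 5 with N737H and 4 with I593T, with medians of -0.04, -0.09 and -0.03. SLC3A2 was at 2207 and 2117 CPM in WT A and B, 2182 and 1783 with R820W, 2012 and 1685 with N737H, and 1991 and 2167 with I593T. Both N737H libraries were below both WT libraries, with a log2 fold change of -0.23 ± 0.17. SLC38A2 was at 523 and 368 CPM in WT, 510 and 392 with R820W, 457 and 378 with N737H and 447 and 342 with I593T, and its groups overlapped. SLC1A5 stood at 145.5 CPM in I593T B and at 70.7 to 92.6 in the other libraries.

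The aminoacyl-tRNA synthetases charge tRNAs with their amino acids. Of the 8 members, 7 had a log2 fold change below 0 with R820W, 8 with N737H and 8 with I593T, with medians of -0.19, -0.21 and -0.18. In each comparison 7 of the 8 were lower than WT in both letters (of all 14834 genes tested, 3655, 3360 and 3898). None passed the test after adjustment, so these are small differences of like sign over genes that share their libraries. Of 12 other cytosolic synthetases, 10, 12 and 11 were below 0 with R820W, N737H and I593T (medians -0.16, -0.17 and -0.13), and of 17 mitochondrial ones, 9, 12 and 10 (medians -0.08, -0.09 and -0.07).

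WARS, the tryptophan enzyme, showed the clearest difference between variants. WT A and B had 431 and 578 CPM, and R820W had 518 and 527. It was at 404 and 320 CPM with N737H and at 364 and 341 with I593T. Both libraries of N737H and of I593T were below both libraries of WT and of R820W. Against WT the log2 fold change was -0.48 ± 0.19 for N737H (edgeR unadjusted p = 0.0351) and -0.52 ± 0.19 for I593T (unadjusted p = 0.0262), and 0.05 ± 0.19 for R820W. Without the WT B library the N737H and I593T values were -0.24 and -0.28. WARS is also an interferon-induced gene, and 1 named pseudogene exists.

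Between variants, WARS was 1.44-fold higher with R820W than with N737H (log2 fold change 0.53 ± 0.19, edgeR unadjusted p = 0.0234) and 1.48-fold higher than with I593T (0.57 ± 0.19, unadjusted p = 0.0175). Neither passed after adjustment (edgeR adjusted p = 1.00 in both), as no gene did in any of the 3 pairs of variants (0% called in each). The other 35 members had an unadjusted p above 0.05 in all 3 pairs. The members' medians were 0.07 for R820W against N737H, -0.05 for R820W against I593T and -0.09 for N737H against I593T. Each changed sign when 1 library of R820W or N737H was left out.

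NARS, EPRS and AARS are the other synthetases among the 4 members of lowest p with R820W or N737H, where none was under 0.05. NARS (asparagine) was at 970 and 753 CPM in WT A and B, 750 and 662 with R820W, 810 and 707 with N737H, and 781 and 673 with I593T. In both letters all 3 variants were below WT, while only the R820W libraries were both under WT B. Its log2 fold changes were -0.29, -0.18 and -0.24, each ± 0.18, and the R820W value was -0.09 without the WT A library and -0.46 without WT B. EPRS (glutamate and proline) was at 685 and 517 CPM in WT, 542 and 452 with R820W, 570 and 481 with N737H, and 554 and 450 with I593T, again with every variant below WT in its letter. For R820W the EPRS value of -0.27 ± 0.20 became -0.06 without the WT A library and -0.47 without WT B. AARS (alanine) was at 209 and 199 CPM in WT, 198 and 176 with R820W, 175 and 166 with N737H, and 166 and 206 with I593T. The N737H difference was -0.26 within each letter, for a log2 fold change of -0.26 ± 0.16 (edgeR unadjusted p = 0.144).

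**Figure D3:**
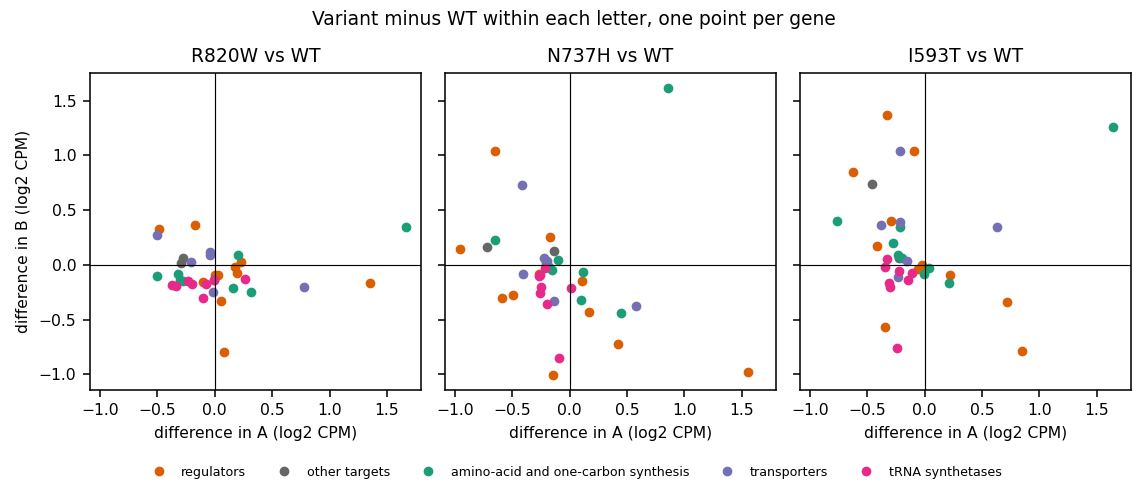
Difference of each variant library from the WT library of the same letter, in log2 CPM with a prior count of 2, for A (horizontal) and B (vertical), 1 point for each of the 36 members, coloured by role. With R820W 14 members were lower in both letters, with N737H 15 and with I593T 12. Over all 14834 genes tested, 3655, 3360 and 3898 were lower in both. The tRNA synthetases lie mostly at the lower left, while regulators and transporters scatter around it.

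Compared with WT within each letter, the members differed between A and B. With R820W the median difference was -0.04 in A and -0.13 in B, with N737H -0.19 and -0.09, and with I593T -0.22 and 0.04. With I593T 29 of 36 members were lower than WT in A and 17 were in B (7782 and 7843 of all 14834 genes tested). These differences rest on 1 library per group in each letter and have no replicate check.

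The second comparison was between the letters, with the construct as a term in the fit, and here members did change. In the B libraries 6 of 36 members were lower (edgeR adjusted p under 0.05): PSAT1, MTHFD2, CBS, CHAC1, SLC7A11 and GARS. None was higher. Over all genes 3.24% were called (480 genes), and 1.52% were called lower (226). At an unadjusted p under 0.05, 16 members were lower and 2 higher, where 23.0% of all genes were called in either direction. The members' median log2 fold change was -0.18, against 0.03 over all genes. Of the 36, 25 were below 0 (69.4%, against 46.4% of all genes). Each construct was lower in B than in A for 17 of the 36 members (47.2%, against 17.8% of all genes).

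The call depends on 2 pairs of libraries. With construct in the fit, leaving out 1 library of a construct removes that construct from the comparison of letters. Without R820W or without I593T no member was called, without N737H 5 were and without WT 8 were. DESeq2 called 13 members. Calls over all 14834 genes moved as well, from 0 to 1324 across the alternative runs, against 480 (3.24%) in the main fit. The log2 fold changes themselves stayed below 0 for the 6 members with every library left out. The letters differed in other ways as well: the first principal component of all genes (33.3% of the variance) separated the A from the B libraries, and CARD14 RNA was higher in B with 3 of the 4 constructs, while total counts and keratinocyte marker sums overlapped between letters. Whether these bear on the ATF4 genes was not tested.

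PSAT1 was at 616, 510, 576 and 537 CPM in the A libraries of WT, R820W, N737H and I593T and at 362, 327, 373 and 378 in the B libraries. No B library reached the lowest A library. The log2 fold change was -0.63 ± 0.08 (SE, n = 4 libraries per letter, edgeR adjusted p = 0.0161). MTHFD2, the mitochondrial dehydrogenase that ATF4 induces for one-carbon units, was at 193, 154, 167 and 164 CPM in A and at 113, 107, 114 and 120 in B, a change of -0.58 ± 0.09 (edgeR adjusted p = 0.0249). Here too the letters did not overlap. PSAT1 has 4 named pseudogenes and MTHFD2 has 7.

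GARS, the glycine enzyme, was at 497, 434, 419 and 392 CPM in A and at 298, 264, 258 and 294 in B, and fell by 0.64 ± 0.09 on the log2 scale (edgeR adjusted p = 0.0193). It was the 1 synthetase past the threshold. TARS (-0.34), MARS (-0.31), EPRS (-0.30), SARS (-0.24) and NARS (-0.24) had edgeR adjusted p-values of 0.0699 to 0.148, and WARS and AARS were at 0.00462 and -0.00158. XPOT, which exports tRNAs from the nucleus, was at 277, 226, 252 and 238 CPM in A and 191, 194, 209 and 200 in B. Its letters did not overlap either, at -0.32 ± 0.09 (edgeR adjusted p = 0.0962).

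CHAC1 was at 40.3, 40.4, 28.6 and 30.2 CPM in A and at 19.5, 18.2, 16.1 and 21.9 in B, with no overlap. It fell by 0.87 ± 0.14 on the log2 scale (edgeR adjusted p = 0.0266). SLC7A11, the cystine transporter, was at 75.9, 53.6, 57.0 and 65.4 CPM in A and at 24.9, 30.1, 41.2 and 32.6 in B (-0.98 ± 0.18, edgeR adjusted p = 0.0391). CBS, which condenses homocysteine with serine, was at 6.32, 7.29, 5.67 and 5.44 CPM in A and at 2.90, 3.10, 2.81 and 3.71 in B (-0.98 ± 0.19, edgeR adjusted p = 0.044). CTH, the next enzyme after CBS, was at 26.2 to 44.5 CPM in A and 16.6 to 23.7 in B, and did not pass (-0.70 ± 0.19, edgeR adjusted p = 0.0951).

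**Figure D4:**
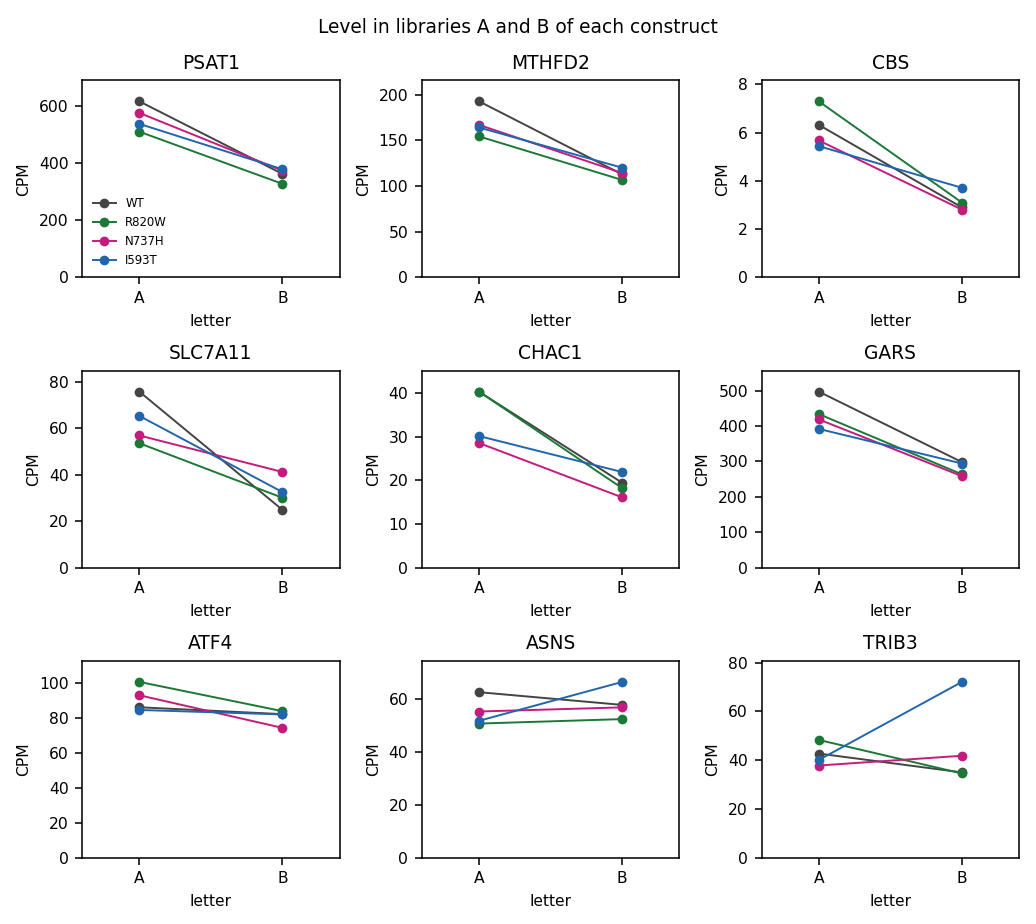
CPM in the A and B library of each construct (1 line per construct, linear axes from 0) for the 6 members lower in B and for ATF4, ASNS and TRIB3, which did not pass. The 4 lines fall in each of the first 6 panels, while TRIB3 is at 40.1 in A and 72.1 in B with I593T, 48.3 and 34.6 with R820W, 42.7 and 35.0 with WT, and 37.8 and 41.8 with N737H.

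The regulators did not follow as a group. Of 11, 5 were below 0 (45.5%, against 46.4% of all genes), with a median of 0.06, and CHAC1 was the 1 called. ATF4 was at 84.7 to 100.7 CPM in A and 74.4 to 84.0 in B, so the letters did not overlap, but the difference of -0.17 ± 0.09 did not pass (edgeR adjusted p = 0.29). DDIT3 was at -0.12 ± 0.09, ASNS at 0.08 ± 0.10 and TRIB3 at 0.06 ± 0.21, with TRIB3 at -0.21 once I593T was left out. SESN2 was at 12.2 to 18.7 CPM in A and 8.71 to 14.3 in B (-0.55 ± 0.16, edgeR adjusted p = 0.109). NUPR1 was the 1 member whose B libraries all lay above its A libraries, at 0.640 to 1.35 against 0.137 to 0.582 CPM (1.36 ± 0.54, edgeR adjusted p = 0.188), on few counts. Its value was 0.84 without WT B and 0.87 without WT A. All 4 B libraries lay below all 4 A libraries for 14 members (38.9%, against 10.0% of all genes) and above them for 1 (2.78%, against 8.0%).

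By role, 7 of the 9 synthesis enzymes were lower in B with 3 called (median -0.35). So were 4 of the 6 transporters with 1 called (median -0.16), and 7 of the 8 synthetases with 1 called (median -0.27). Over all genes tested, 46.4% were lower and 1.52% were called lower. STC2, a secreted glycoprotein, stood at 51.6, 42.7, 31.3 and 37.5 CPM in A and 29.2, 30.5, 32.6 and 48.6 in B, where the letters overlapped (-0.22 ± 0.20). PSPH was at -0.35 ± 0.08 and SLC38A2 at -0.39 ± 0.08 (edgeR adjusted p = 0.0704 and 0.0548), and SLC7A5 was at 0.46 ± 0.18 (edgeR adjusted p = 0.179), or 0.25 without WT B and 0.28 without WT A. PHGDH, SHMT2, SLC3A2 and SLC1A5 were near 0, at -0.02, -0.11, -0.12 and 0.03.

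Other genes of the pathway were read from lists chosen in the same way. For comparison, 46.4% of all genes tested were lower in B and 1.52% were called lower. Of 16 genes for eIF2 kinases, eIF2 factors and their regulators, 13 were lower in B and 1 was called. It was a regulator, DNAJC3, an inhibitor of the kinases PERK and PKR (-0.65 ± 0.11, edgeR adjusted p = 0.0372). EIF2AK3, which encodes PERK, was at -0.72 ± 0.17 (edgeR adjusted p = 0.0733). Of 19 further ATF4 or CHOP targets with enough counts, 12 were lower and 1 was called, HERPUD1, a part of the machinery that clears misfolded protein from the endoplasmic reticulum (-0.62 ± 0.10, edgeR adjusted p = 0.0285). Of 16 genes for chaperones and related proteins of the endoplasmic reticulum, 10 were lower and 1 was called, DNAJB9. The list includes XBP1, SEL1L, SYVN1 and EDEM1, which do not encode chaperones. DNAJB9 had 78.2, 55.5, 44.0 and 49.9 CPM in A and 22.2, 25.4, 25.8 and 26.8 in B. Its log2 fold change was -1.15 ± 0.18 (edgeR adjusted p = 0.0251). HSPA5 (BiP), the main chaperone of the endoplasmic reticulum, had 5589 to 7258 CPM in A and 4283 to 4995 in B. The HSPA5 change was -0.40 ± 0.09 (edgeR adjusted p = 0.0618). Of the 12 other cytosolic synthetases 8 were lower (median -0.17), and of the 17 mitochondrial ones 8 were lower and 9 higher (median 0.10), with none called in either list.

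**Figure D5:**
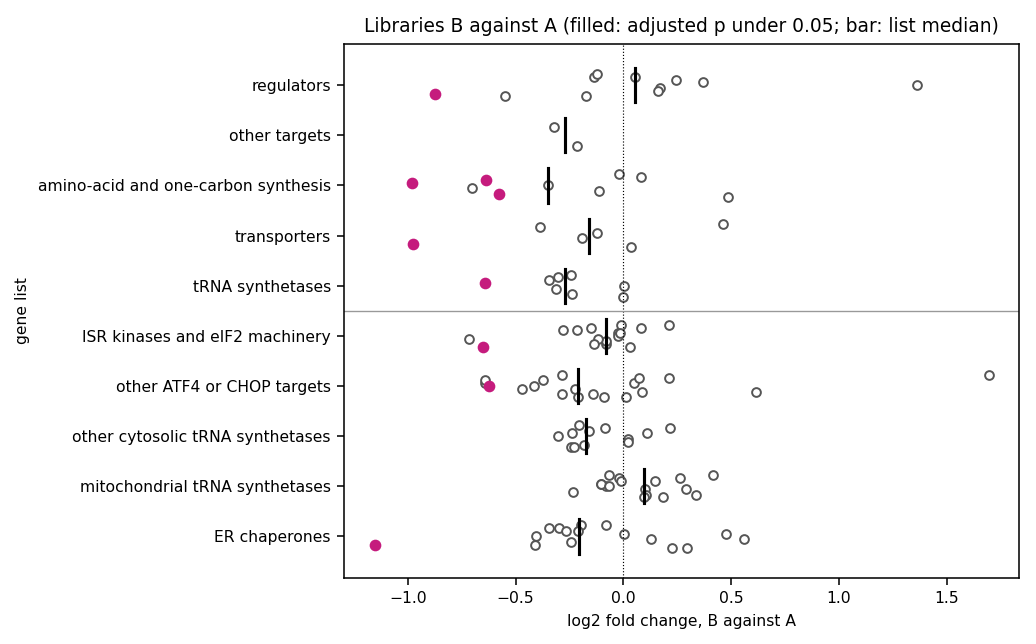
Log2 fold change of B against A for every tested gene of each list, the member groups above the grey line and other genes of the pathway under it; filled points have an adjusted p under 0.05 and black bars are list medians. All 9 filled points lie below 0, 6 of them members, and the medians run from -0.35 for the synthesis enzymes to 0.10 for the mitochondrial synthetases.

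In the comparisons with WT none of these outside genes passed. All 16 genes for eIF2 kinases, eIF2 factors and their regulators were below 0 with R820W (median -0.13), 13 with N737H and 9 with I593T. EIF2AK4, which encodes GCN2, the kinase that senses uncharged tRNA, was at 33.7 and 25.3 CPM in WT and at 36.4 and 49.7 with I593T (0.55 ± 0.22, edgeR unadjusted p = 0.0398). ATF3, which ATF4 and other stress factors induce, was at 12.6 and 29.7 CPM in WT and at 49.6 and 47.7 with R820W (1.20 ± 0.35, edgeR unadjusted p = 0.00939). CRELD2, a stress-induced protein of the endoplasmic reticulum, was at 18.5 and 12.9 CPM in WT, at 19.3 and 63.6 with I593T and at 17.9 and 32.2 with N737H. The I593T B library that stood apart for CRELD2 was the highest of the 8 for 6 members, CEBPG, TRIB3, PPP1R15A, ASNS, SLC7A5 and SLC1A5 (16.7%, against 15.8% of all genes).

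Across the 8 libraries, the 5 genes whose level was most like that of ATF4 were MAP4 (Pearson r = 0.95), SLC6A9 (0.94), RASSF1 (0.94), KARS (0.93) and DDX19A (0.92), of 9583 genes with a mean of at least 5 CPM. SLC6A9, a glycine transporter, and KARS, the lysine synthetase, are also on the outside lists. Among members r was highest for CBS (0.82), MARS (0.81), CHAC1 (0.77) and SHMT2 (0.75), and lowest for CEBPG (-0.43), CEBPB (-0.42) and ASNS (-0.41). All points share the same 8 libraries and their split by letter.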

How the data were processed

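RNA of 8 libraries was analysed from 1 table of raw whole-number read counts by gene symbol, which the authors deposited. Per the submitters' processing notes, the names given are hg19, FastQC, MACS2 and DESeq2, without roles. The aligner, annotation, counter and strand setting are not given in the sources here, so that reads of pseudogenes, paralogs and antisense genes may be split or merged.

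The members and lists were chosen with earlier results of these data known. Genes were filtered with filterByExpr over the 4 groups (14834 of 28518 rows, 99.9% of counts), scaled by TMM and fitted in edgeR 4.0.16 (R 4.3.3) with the quasi-likelihood test, two-sided, adjusted by Benjamini-Hochberg over all genes tested, threshold 0.05. Groups were fitted as 4 means; the letter was tested with the group as a term. Each SE is the fold change over the root of its F value, and intervals have 95% coverage. Differences within a letter used log2 CPM with a prior count of 2. Values in every library are given for the 4 members of smallest p in each comparison with WT and between letters, and the 2 of highest mean count in each role group; further members were picked with their values in view. Alternatives were RLE scaling, other filters, DESeq2 1.42.0, limma 3.58.1 voom, the replicate block, a fit of the compared groups alone, and leaving out each library. The smallest chi-square per gene between libraries was 6.17, so all 8 were counted as separate. The fits were tested on simulated data. A withheld item is not reported here.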

Additional observations from a re-analysis of the deposited data

Results flagged for a closer look

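For 11 of the 36 members, all 3 variants lay on one side of WT in the A libraries and on the other side in the B libraries, which was the case for 25.6% of all genes tested. The difference between letters was not tested, and each value rests on the single WT library of its letter. Values are the mean difference of the 3 variants from WT in log2 CPM, in A and then in B.

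Higher than WT in A and lower in B were 5 members (14.4% of all genes): CEBPB (0.407 and -0.617), ATF5 (0.196 and -0.198), NUPR1 (1.25 and -0.645), PHGDH (0.323 and -0.282) and SHMT2 (0.101 and -0.188). Lower in A and higher in B were 6 members (11.2% of all genes): CEBPG (-0.49 and 0.913), PPP1R15A (-0.581 and 0.451), STC2 (-0.486 and 0.321), XPOT (-0.217 and 0.0699), SLC7A11 (-0.376 and 0.464) and SLC1A5 (-0.158 and 0.41).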

How the results depend on the processing

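With 2 libraries per group and no term for the letter in the main fit, the comparisons with WT could show only large changes. Genes called with no filter were 2 for R820W, 2 for N737H, 8 for I593T and 2 for the mean of variants against WT, and 8, 10 and 11 for R820W against N737H, R820W against I593T and N737H against I593T. DESeq2 called 1 for N737H, 2 for I593T and 3 for R820W against N737H. With the replicate block, DESeq2 called 1, 23, 4 and 4 genes against WT (R820W, N737H, I593T, mean) and 30, 8 and 1 in the 3 pairs, and edgeR called 1 for R820W against N737H. Same-letter libraries had deviations correlated at 0.0242 (WT with N737H) to 0.41, and the labels do not say that letters pair samples. With each library left out, calls ran from 0 to 2 for I593T, R820W against I593T and N737H against I593T, and from 0 to 1 for the mean. Between letters, 760 genes were called with no filter, 1321 by DESeq2, 1324 without the group term and 0 to 1138 with each library left out, and 13, 12 and 0 to 8 members by DESeq2, without the group term and with each library left out.

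With each library left out, the members' median ran from -0.28 to 0.10 for R820W, -0.31 to 0.025 for N737H, -0.20 to 0.097 for the mean, -0.12 to 0.21 for R820W against N737H and -0.27 to 0.095 for N737H against I593T. Members below 0 (a count chosen after seeing the data) ran from 12 to 31, 15 to 32 and 12 to 27 for R820W, N737H and I593T. ATF4 turned to 0.0043 (RLE, and 0.0043 by DESeq2), 0.043 (at least 10 counts in 6 libraries) and 0.030 (only the groups compared) with N737H, and to 0.017 and 0.0083 (the latter 2) with I593T; with libraries left out it ran from -0.21 to 0.17, -0.039 to 0.019 and, for R820W, -0.029 to 0.26. DDIT3 with I593T ran from -0.12 to 0.032, and between letters ASNS from -0.013 to 0.15 and TRIB3 from -0.21 to 0.24. The 6 members called between letters stayed below 0 in every alternative run. The cause was not tested.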
